A study of Homo sapiens with 2 samples.

Results

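Cells with transcripts of RAG1 and RAG2 were examined in cultures of Nalm-6, a line from a human acute lymphoblastic leukemia of B-cell precursors. A RAG cell was defined as a kept cell barcode with 2 or more unique molecular identifiers (UMIs, tags that count each captured transcript once) from RAG1 and RAG2 summed. A barcode was kept if it had 1000 or more genes and a mitochondrial share of UMIs no higher than 10%. By this rule the ETV6-RUNX1 library held 397 RAG cells among 2267 kept cells and the LUC control library 268 among 1870, or 665 of 4137 in all. They were set against kept cells with 0 UMIs of either gene and 8700 or more UMIs in total (0-UMI cells), of which there were 1089 in the ETV6-RUNX1 library and 1040 in the LUC control library. The cells were chosen by their UMI counts of RAG1 and RAG2, so the levels of these genes in RAG cells are a description with no test.

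The series had 2 droplet libraries, 1 per construct. The cells of the first carried an inducible (Tet-On) construct for ETV6-RUNX1, the fusion also called TEL-AML1, and those of the second an inducible construct for luciferase. Both cultures received 500 ng/ml doxycycline for 24 h and both were depleted of dead cells with beads, so the LUC control cells share the line, the drug and the handling. Nothing in the labels says whether a modified culture was a single clone or a pool, and the 32738 gene entries include neither luciferase nor the fusion, so induction was not checked per cell. RUNX1, of which the fusion carries a large part, was at 31.9 CPM (a gene's UMIs scaled to the summed UMIs of the cells) in RAG cells of the ETV6-RUNX1 library and 30.2 CPM in RAG cells of the LUC control library. Each construct had 1 library, and cells of a library do not replicate a construct, so differences are given by size with no test. Each 95% interval below covers counting error only and takes UMIs as independent.

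RAG1 and RAG2 together form the recombinase that cuts DNA at recombination signal sequences and so starts V(D)J recombination, the joining of antibody gene segments in developing lymphocytes. In normal B-cell precursors the genes are transcribed in pro-B cells, are lowered while large pre-B cells divide, and are transcribed again in small resting pre-B cells. B-cell precursor leukemias often keep the genes on, and in ETV6-RUNX1 leukemia RAG-mediated deletions are a known source of secondary lesions.

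RAG2 and DNTT are shown by the 250 bases just before their annotated starts, because RAG2 helped to choose the cells and DNTT, the polymerase that adds untemplated bases at V(D)J joints, is the gene of that machinery that was higher in RAG cells of both libraries by the most. The sequences are RefSeq reference sequence of build GRCh38.p14 and are not joined to the counts, for which the submitters' processing notes name hg19. Capitals mark matches to CAGNTG, the core that E proteins such as TCF3 prefer among E-boxes, and to TAACNG, a core bound by MYB, on either strand. RAG2 lies at chr11:36598237-36598486 on the minus strand and DNTT at chr10:96304184-96304433 on the plus strand.
RAG2: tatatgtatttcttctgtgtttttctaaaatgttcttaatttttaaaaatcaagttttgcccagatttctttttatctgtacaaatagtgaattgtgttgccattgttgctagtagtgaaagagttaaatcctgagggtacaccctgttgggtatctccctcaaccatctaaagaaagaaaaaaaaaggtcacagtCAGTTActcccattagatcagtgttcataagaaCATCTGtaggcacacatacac
DNTT: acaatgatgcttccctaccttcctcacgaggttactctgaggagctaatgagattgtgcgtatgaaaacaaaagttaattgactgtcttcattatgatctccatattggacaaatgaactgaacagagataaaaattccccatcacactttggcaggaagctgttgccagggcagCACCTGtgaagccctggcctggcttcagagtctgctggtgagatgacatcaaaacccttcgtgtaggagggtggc
The RAG2 window held 1 match to CAGNTG and 1 to TAACNG, and the DNTT window 1 and 0. These matches do not overlap. Over 35116 RefSeq windows of the same length, 42.5% held CAGNTG and 17.6% held TAACNG. The forkhead core GTAAACA was in neither window and in 2.98% of all windows. A match of this kind is a description of the letters and not of a bound site.

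The RAG cells were deeper than the 0-UMI cells they were compared with. Their median was 21385 UMIs per cell in the ETV6-RUNX1 library, against 19273 in 0-UMI cells, and 26188 in the LUC control library, against 22092 in 0-UMI cells. Cells with exactly 1 RAG UMI lay between, at 20352 in the ETV6-RUNX1 library and 22924 in the LUC control library. Kept cells were also ranked by UMIs per cell into 4 groups of near-equal number. The share that passed the rule in the lowest and highest of these groups was 8.99% and 26.6% in the ETV6-RUNX1 library and 7.05% and 23.5% in the LUC control library. Over the 4 groups, lowest depth first, the summed level of RAG1 and RAG2 was 43.3 (37.9 to 49.2), 40.4, 32.8 (29.7 to 36.2) and 35.0 CPM in the ETV6-RUNX1 library, and 30.4, 29.7, 25.9 and 26.3 CPM in the LUC control library. Deeper cells thus passed the rule more often although their RAG level was not higher, and the comparisons within each library were repeated with the 0-UMI cells weighted to the depth of the RAG cells (depth-matched). The median mitochondrial share was 4.57% in RAG cells and 4.52% in 0-UMI cells of the ETV6-RUNX1 library, and 4.51% and 4.33% in those of the LUC control library.

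At full depth RAG cells made up 17.5% of kept cells in the ETV6-RUNX1 library (95% Clopper-Pearson interval 16.0 to 19.1) and 14.3% in the LUC control library (12.8 to 16.0). When each cell was thinned to 8700 UMIs, which left out 224 shallower cells of the ETV6-RUNX1 library and 84 of the LUC control library, 5.73% (4.76 to 6.82) of cells with ETV6-RUNX1 and 2.58% (1.89 to 3.42) with LUC control still had 2 or more RAG UMIs. With 3 or more RAG UMIs at full depth the shares were 5.34% with ETV6-RUNX1 and 5.03% with LUC control. All of these shares come from the UMIs that define the cells and are a description. Of the RAG cells, 276 in the ETV6-RUNX1 library and 174 in the LUC control library stood exactly at the threshold of 2 UMIs, and 619 kept cells with ETV6-RUNX1 and 498 with LUC control stood just below it at 1 UMI. The highest count in a cell was 6 in the ETV6-RUNX1 library and 7 in the LUC control library. Of all RAG UMIs in kept cells, 61.5% lay in RAG cells of the ETV6-RUNX1 library and 57.6% in RAG cells of the LUC control library, so a large part of RAG transcription was read in cells that the rule leaves out.

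RAG1, the subunit with the catalytic site, gave more UMIs than RAG2 in both libraries. In RAG cells it had 642 UMIs (71.8 CPM) in the ETV6-RUNX1 library and 416 UMIs (56.9 CPM) in the LUC control library. RAG2, the partner subunit whose plant homeodomain finger binds trimethylated histone H3 lysine 4, had 346 UMIs (38.7 CPM) in RAG cells of the ETV6-RUNX1 library and 261 UMIs (35.7 CPM) in those of the LUC control library. Over all kept cells, which the rule did not choose by RAG, RAG1 was at 23.8 CPM in the ETV6-RUNX1 library and 16.6 CPM in the LUC control library, a log2 ratio of 0.53 (0.39 to 0.66). RAG2 was at 12.7 CPM with ETV6-RUNX1 and 10.9 CPM with LUC control, a log2 ratio of 0.22 (0.04 to 0.40). At 8700 UMIs per cell the log2 ratios were 0.50 (0.28 to 0.72) for RAG1 and 0.29 (-0.01 to 0.60) for RAG2, so the difference in RAG2 was within counting error at that depth. The levels compare libraries and not the genes with each other, since a gene's capture was not calibrated. RAG1 and RAG2 lie beside each other and C11orf74 overlaps RAG2 on the other strand. The sources used here do not say whether counting used strand.

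Both genes were found in 50.6% of RAG cells of the ETV6-RUNX1 library and 50% of those of the LUC control library. Cells with RAG1 alone made up 38.3% of RAG cells with ETV6-RUNX1 and 34.7% with LUC control, and cells with RAG2 alone 11.1% with ETV6-RUNX1 and 15.3% with LUC control. At equal depth, cells with and without RAG1 held RAG2 at like shares. After thinning, RAG2 was detected in 11.5% (8.47 to 15.2) of cells with RAG1 and 9.88% (8.49 to 11.4) of cells without it in the ETV6-RUNX1 library, and in 8.33% (5.23 to 12.5) of cells with RAG1 and 8.15% (6.83 to 9.63) of cells without it in the LUC control library. The intervals overlap widely in both libraries, and an excess of joint detection was not detectable at this depth.

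**Figure D1:**
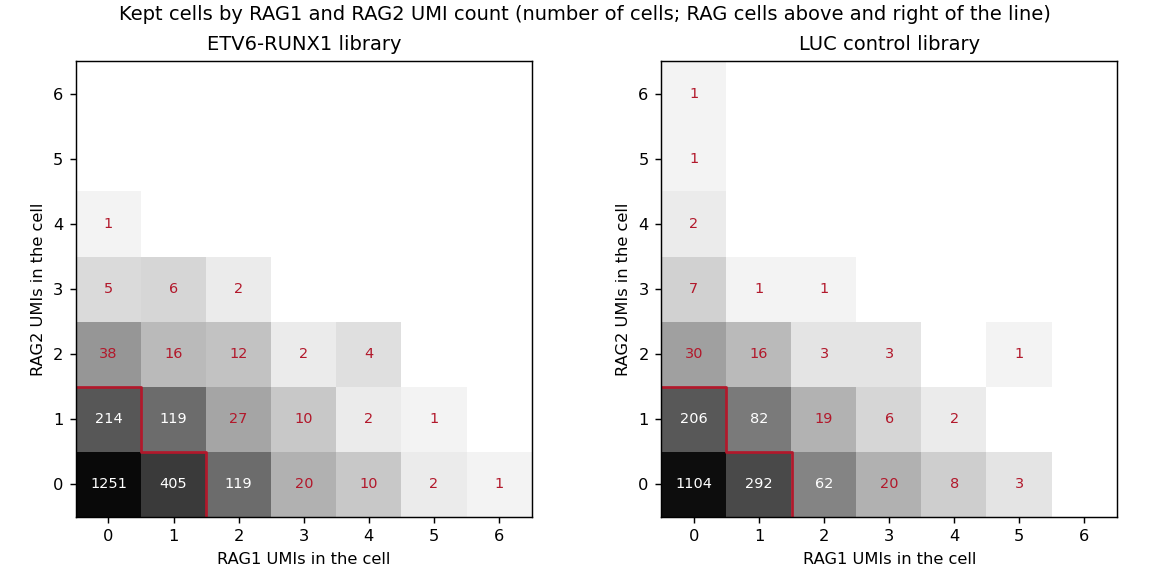
Number of kept cells by RAG1 UMIs (horizontal axis) and RAG2 UMIs (vertical axis) in the ETV6-RUNX1 library (left) and the LUC control library (right), with the RAG cells those whose axes sum to 2 or more. Most RAG cells lie at the threshold, 276 of 397 with ETV6-RUNX1 and 174 of 268 with LUC control.

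Free RNA in the droplets gives UMIs in cells that do not make a gene. In barcodes with over 50% mitochondrial UMIs, a RAG UMI was found in 1.91% of 157 with ETV6-RUNX1, against 0.488% of 205 with LUC control, but the median of the barcodes left out was only 1001.5 UMIs with ETV6-RUNX1 and 1067 with LUC control. A culture of a single line has no cell type that should lack RAG at the depth of the RAG cells, so the share of RAG cells that free RNA gave was not tested. The libraries shared 16 barcodes, of which 7 were kept in both and none was a RAG cell in both. Doublets were left in: Scrublet called 3 RAG cells in the ETV6-RUNX1 library and 2 in the LUC control library, of 14 kept cells called with ETV6-RUNX1 and 16 with LUC control.

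RAG cells were B-lineage cells of the line by their markers. Of 11 genes listed for the identity of Nalm-6, none was at 0 in RAG cells of either library, and 10 were measured. Their medians of log2 ratio to 0-UMI cells were 0.13 in the ETV6-RUNX1 library and 0.11 in the LUC control library. Marker genes of T and NK cells summed to 11.5 CPM in RAG cells and 17.4 CPM in 0-UMI cells of the ETV6-RUNX1 library, and to 15.5 and 14.7 CPM in those of the LUC control library, with 10 of 14 at 0 in RAG cells with ETV6-RUNX1 and 11 with LUC control. Myeloid markers summed to 18.9 CPM in RAG cells and 17.6 CPM in 0-UMI cells of the ETV6-RUNX1 library and to 19.02 and 16.1 CPM in those of the LUC control library, with 8 of 12 at 0 in RAG cells with ETV6-RUNX1 and 7 with LUC control. Erythroid and megakaryocyte markers reached at most 0.274 CPM in RAG cells and 0.473 CPM in 0-UMI cells. Stem and progenitor markers summed to 23.8 CPM in RAG cells and 16.0 CPM in 0-UMI cells of the ETV6-RUNX1 library, and to 26.7 and 20.05 CPM in those of the LUC control library, nearly all of it EGFL7. Mature B and plasma cell markers, mostly MZB1, summed to 261 CPM in RAG cells and 265 CPM in 0-UMI cells of the ETV6-RUNX1 library and to 367 and 353 CPM in those of the LUC control library. The part of these markers in the results below was not tested.

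For the rest of the transcriptome, UMIs were summed over the cells of each kind and scaled to CPM, and genes that reached 20 CPM in RAG cells, 0-UMI cells or both counted as measured. No gene of the 3895 measured in both libraries was 1.5-fold or more higher (0%) or lower (0%) in RAG cells of both. In the ETV6-RUNX1 library 9 of 3997 genes (0.225%) were higher and 3 (0.0751%) lower by that size, and in the LUC control library 20 of 4069 (0.492%) were higher and 0 (0%) lower. At 1.3-fold, 55 (1.38%) were higher and 17 (0.425%) lower in the ETV6-RUNX1 library, 75 (1.84%) higher and 11 (0.27%) lower in the LUC control library, and 11 (0.282%) higher and 1 (0.0257%) lower in both. Few genes thus differed by these sizes between RAG cells and 0-UMI cells of a culture. The genes past 1.5-fold in 1 library fell short of that size in the other. Some of them, such as GBP4 and PHYH, were still past 1.3-fold in both. A cell with 0 RAG UMIs may still hold RAG transcripts that were not captured. The part of this in the small ratios was not tested.

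The 11 genes that were 1.3-fold or more higher in RAG cells of both libraries were GBP4, PHYH, ID4, NRIP1, EGFL7, SDE2, ERG, CXCR4, MXD3, CCNB2 and KDM5B. Among them SDE2 and EGFL7 reached 20 CPM in RAG cells alone in both libraries. GBP4 did so in the ETV6-RUNX1 library, and ERG and KDM5B in the LUC control library. Such genes counted as measured through the cells in which they were higher, so their ratios are a description. GBP4, an interferon-inducible GTPase, was at 33.4 CPM in RAG cells and 18.6 CPM in 0-UMI cells of the ETV6-RUNX1 library (log2 ratio 0.85, 0.63 to 1.07) and at 27.4 and 20.7 CPM in those of the LUC control library (0.40, 0.16 to 0.64). PHYH, a peroxisomal enzyme of branched fatty acid oxidation, was at 62.4 and 37.1 CPM (0.75, 0.59 to 0.91) in RAG and 0-UMI cells of the ETV6-RUNX1 library and 41.5 and 31.5 CPM (0.39, 0.20 to 0.59) in those of the LUC control library. Both genes were thus higher in RAG cells of each library, and the difference between the libraries was not tested. ID4, an inhibitor that binds E proteins, was at 37.8 and 23.8 CPM in RAG and 0-UMI cells of the ETV6-RUNX1 library (0.67, 0.47 to 0.87) and 32.7 and 24.8 CPM in those of the LUC control library (0.40, 0.17 to 0.62). ERG, an ETS transcription factor of hematopoietic progenitors, was at 29.1 and 20.02 CPM in RAG and 0-UMI cells of the ETV6-RUNX1 library (0.54, 0.31 to 0.76) and 26.3 and 19.1 CPM in those of the LUC control library (0.46, 0.21 to 0.71).

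CXCR4, the chemokine receptor that holds B-cell precursors in the marrow, had the most UMIs of the 11. It was at 155.9 CPM in RAG cells and 107.8 CPM in 0-UMI cells of the ETV6-RUNX1 library (0.53, 0.43 to 0.63), and at 193.1 and 142.7 CPM in those of the LUC control library (0.44, 0.35 to 0.53). MXD3, a MAX partner of the MYC network, was at 47.5 and 33.6 CPM in RAG and 0-UMI cells of the ETV6-RUNX1 library (0.50, 0.32 to 0.67) and 42.6 and 27.2 CPM in those of the LUC control library (0.65, 0.45 to 0.84). The nuclear receptor corepressor NRIP1 had log2 ratios of 0.64 with ETV6-RUNX1 and 0.43 with LUC control, SDE2 0.57 with ETV6-RUNX1 and 0.41 with LUC control, the histone demethylase KDM5B 0.39 with ETV6-RUNX1 and 0.57 with LUC control, and the mitotic cyclin CCNB2 0.41 with ETV6-RUNX1 and 0.80 with LUC control. MPP1, a membrane scaffold protein, followed with 0.43 with ETV6-RUNX1 and 0.36 with LUC control. EGFL7, a secreted factor, had 0.57 with ETV6-RUNX1 and 0.40 with LUC control. With the 3 cell cycle phases given equal weight it was at -0.27 in the LUC control library. Within G1, S and G2/M cells of that library it had -1.98 (-4.31 to -0.34), 0.78 and 0.22. Equal weight lets G1 count as much as S or G2/M, although G1 held only 35 RAG cells with ETV6-RUNX1 and 19 with LUC control. No single cell gave more than 6.01% of the UMIs of any of these 12 genes.

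Lower genes were fewer and nearer to 0. NUP210, a nuclear pore membrane protein, was at 21.3 CPM in RAG cells and 29.2 CPM in 0-UMI cells of the ETV6-RUNX1 library (-0.46, -0.70 to -0.22) and at 20.4 and 28.7 CPM in those of the LUC control library (-0.50, -0.76 to -0.24). It was the 1 gene lower by 1.3-fold in both. CD3EAP, a subunit of RNA polymerase I, had -0.40 with ETV6-RUNX1 and -0.35 with LUC control, UNG, the uracil DNA glycosylase, -0.31 with ETV6-RUNX1 and -0.49 with LUC control, and the fatty acid synthase FASN -0.31 with ETV6-RUNX1 and -0.27 with LUC control. With the 3 phases given equal weight UNG had -0.35 with ETV6-RUNX1 and -0.04 with LUC control. Within G1, S and G2/M cells UNG had -3.12 (-8.48 to -0.51), -0.21 and 0.01 with ETV6-RUNX1. With LUC control the values were 0.79 (-0.62 to 2.06), -0.23 and -0.24. SDF2L1, a chaperone partner of the endoplasmic reticulum, had the most UMIs of the 12 lowest genes, at 209.2 CPM in RAG cells and 261.3 CPM in 0-UMI cells of the ETV6-RUNX1 library (-0.32) and 216.5 and 261.0 CPM in those of the LUC control library (-0.27). C12orf75, CBX6, FAM129C, FAM104B, RP11-752G15.6, RGS19 and PUS1 completed the 12 lowest, with log2 ratios between -0.51 and -0.22 in the ETV6-RUNX1 library and between -0.29 and -0.24 in the LUC control library.

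**Figure D2:**
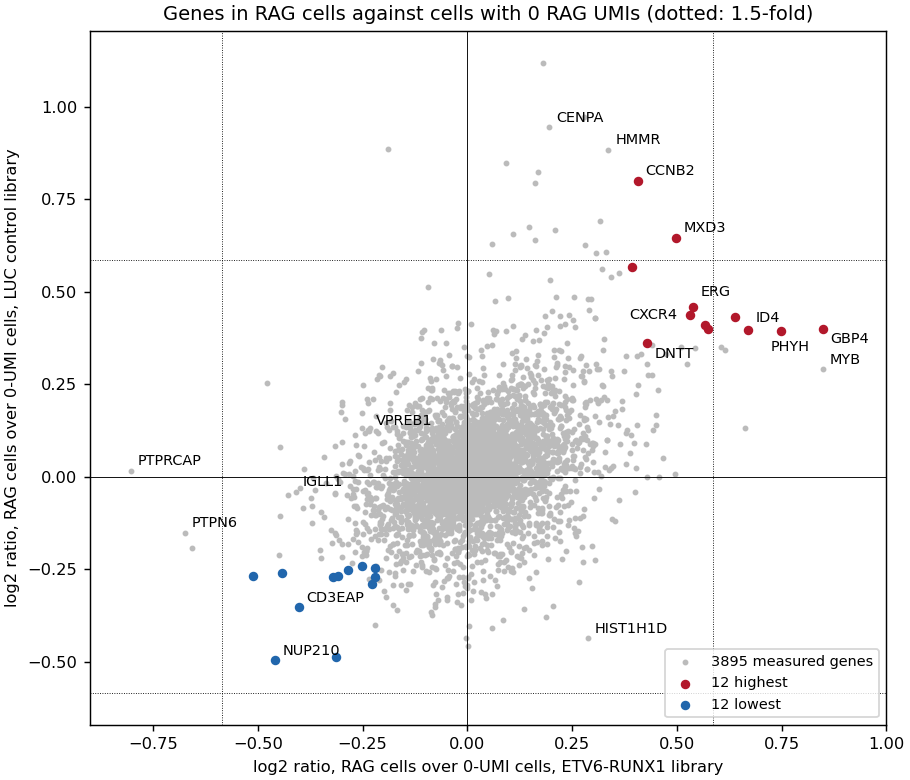
Log2 ratio of CPM in RAG cells over 0-UMI cells in the ETV6-RUNX1 library (horizontal axis) against that in the LUC control library (vertical axis), 1 point per measured gene, RAG1 and RAG2 left out. The 3895 points crowd around medians of 0.01 in each library, GBP4, PHYH, ID4 and MYB lie to the right, the mitotic genes CENPA and HMMR at the top, and PTPRCAP and PTPN6 to the left.

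The counts stayed small after matching for depth or phase. Depth-matched, 2 of 3915 genes (0.0511%) were 1.5-fold higher in RAG cells of both libraries, ID4 (0.78 in the ETV6-RUNX1 library and 0.61 in the LUC control library) and PDGFRA (0.74 with ETV6-RUNX1 and 0.62 with LUC control), a receptor tyrosine kinase; none was lower (0%), and at 1.3-fold 20 (0.511%) were higher and 1 (0.0255%) lower. With the 3 phases given equal weight, 2 of 3851 (0.0519%) passed, GBP4 (0.83 with ETV6-RUNX1 and 0.60 with LUC control) and ID4 (0.80 with ETV6-RUNX1 and 0.72 with LUC control), none was lower (0%), and at 1.3-fold 19 (0.493%) were higher and 5 (0.13%) lower. Among RAG cells with 3 or more UMIs, 121 in the ETV6-RUNX1 library and 94 in the LUC control library, 14 of 3947 genes (0.355%) were 1.5-fold higher in both and 0 (0%) lower, and at 1.3-fold 61 (1.55%) were higher and 6 (0.152%) lower. The 14 genes were CXCR4, CCNB1, HMMR, MXD3, ID4, MYB, KIF4A, G2E3, DLGAP5, CCNB2, PLK1, TOP2A, NRIP1 and ERG, of which CCNB1, HMMR, KIF4A, DLGAP5, CCNB2, PLK1 and TOP2A act in mitosis. For these cells with 3 or more UMIs the 0-UMI cells were matched for neither depth nor phase.

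Several levels were ordered by the number of RAG UMIs. Among cells of 8700 or more UMIs with 0, 1, 2 and 3 or more RAG UMIs there were 1089, 569, 267 and 118 cells in the ETV6-RUNX1 library and 1040, 483, 169 and 94 in the LUC control library. DNTT was at 319.5, 409.1, 416.0 and 444.5 CPM over these classes in the ETV6-RUNX1 library and at 302.0, 322.2, 360.8 and 394.7 CPM in the LUC control library. CXCR4 was at 107.8, 128.6, 138.1 and 188.2 CPM in the ETV6-RUNX1 library and at 142.7, 159.0, 177.0 and 218.9 CPM in the LUC control library. ERG was at 20.02, 22.1, 27.6 and 31.9 CPM in the ETV6-RUNX1 library and at 19.1, 21.4, 23.7 and 30.7 CPM in the LUC control library. These 3 genes were thus higher in each class than in the class below it, in both libraries. CXCR4 and ERG were named for their ratio in RAG cells, so part of the order follows from that choice. The share of all genes with such an order was not counted. ID4 and CCNB2 broke the order. Between the classes of 2 and of 3 or more RAG UMIs, ID4 went from 38.4 to 36.4 CPM with ETV6-RUNX1. CCNB2 went from 64.5 to 61.5 CPM between those classes with LUC control. MYB was higher in each class than in the class below in the ETV6-RUNX1 library alone, at 47.5, 63.1, 77.3 and 99.9 CPM, against 48.1, 55.5, 48.9 and 75.3 CPM in the LUC control library. PTPRCAP ran the other way in the ETV6-RUNX1 library, at 45.3, 35.9, 29.2 and 20.3 CPM, and had no order in the LUC control library, at 109.5, 107.8, 122.3 and 91.8 CPM. Depth differed between the classes as well.

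**Figure D3:**
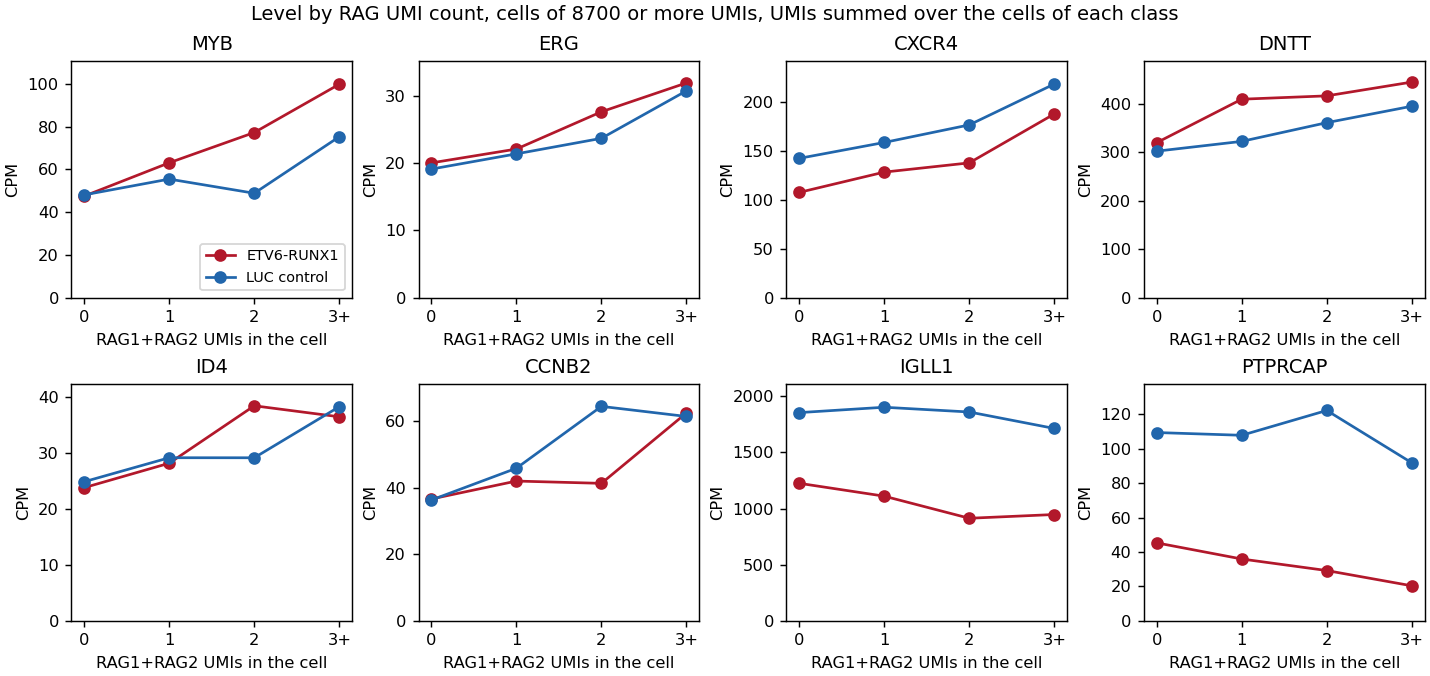
CPM (vertical axes) of genes named in the text in cells of 8700 or more UMIs with 0, 1, 2 and 3 or more RAG UMIs (horizontal axis), for the ETV6-RUNX1 and the LUC control library, with lines joining the classes of a library. DNTT, CXCR4 and ERG are higher in each class than in the class below in both libraries, while PTPRCAP is at 20.3 CPM in the highest class of the ETV6-RUNX1 library, against 45.3 CPM in its 0-UMI cells.

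The genes of the V(D)J reaction did not move as a group. Of 12 measured members of a list for V(D)J recombination and end joining, 5 were above 0 and 2 below 0 in both libraries, with medians of 0.06 in the ETV6-RUNX1 library and 0.07 in the LUC control library, beside 0.01 with ETV6-RUNX1 and 0.01 with LUC control over all 3895 measured genes, of which 1360 were above 0 and 1049 below 0 in both. None was 1.3-fold different in both. DNTT was at 430.1 CPM in RAG cells and 319.5 CPM in 0-UMI cells of the ETV6-RUNX1 library (log2 ratio 0.43, 0.37 to 0.49) and 373.3 and 302.0 CPM in those of the LUC control library (0.31, 0.24 to 0.37). HMGB2, a DNA-bending protein that helps RAG bind its signal sequences and is also abundant in dividing cells, had 0.28 (0.25 to 0.31) with ETV6-RUNX1 and 0.26 (0.22 to 0.29) with LUC control. The Ku subunits XRCC5 (0.07 with ETV6-RUNX1 and -0.01 with LUC control) and XRCC6 (0.01 with ETV6-RUNX1 and 0.09 with LUC control), which bind DNA ends, and the kinase gene PRKDC (0.05 with ETV6-RUNX1 and -0.04 with LUC control) lay near 0. COMMD9, a neighbour of the RAG genes, did not stand apart. It was at 45.2 CPM in RAG cells and 44.2 CPM in 0-UMI cells of the ETV6-RUNX1 library and 48.3 and 50.6 CPM in those of the LUC control library. TRAF6, another neighbour, was at 3.13 CPM in RAG cells and 2.71 CPM in 0-UMI cells with ETV6-RUNX1 (0.21, -0.50 to 0.88). With LUC control it was at 3.28 and 2.41 CPM (0.45, -0.31 to 1.16). TRAF6 had 28 UMIs in RAG cells with ETV6-RUNX1 and 24 with LUC control, too few to show whether it differed. C11orf74 had 8 UMIs in RAG cells with ETV6-RUNX1 and 3 with LUC control. PRR5L had 0 UMIs in RAG cells, which allows up to 0.336 CPM in the ETV6-RUNX1 library and 0.411 CPM in the LUC control library.

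Most measured transcription factors of the B lineage had log2 ratios above 0 in both libraries, by small amounts. Of 19 on a list, 17 were above 0 and 1 below 0 in both, beside 1360 and 1049 of all 3895 measured genes, with medians of 0.18 in the ETV6-RUNX1 library and 0.23 in the LUC control library; ERG and ID4 were the 2 past 1.3-fold in both. Of 16 measured genes listed as regulators of RAG transcription, 13 were above 0 and 3 below 0 in both, with medians of 0.15 with ETV6-RUNX1 and 0.20 with LUC control. With the 3 phases given equal weight the medians of the transcription factors were 0.21 with ETV6-RUNX1 and 0.14 with LUC control, and those of the regulators 0.08 with ETV6-RUNX1 and 0.08 with LUC control. These lists share members. TCF4, an E protein, had log2 ratios of 0.52 (0.44 to 0.60) in the ETV6-RUNX1 library and 0.30 (0.22 to 0.39) in the LUC control library, and POU2AF1, a B-cell coactivator, 0.32 (0.07 to 0.57) with ETV6-RUNX1 and 0.56 (0.28 to 0.84) with LUC control. POU2AF1 reached 20 CPM in RAG cells alone in both libraries, and ERG and FOXO1 did so in the LUC control library. Their ratios are a description, and the counts above 0 include such genes. BACH2, a repressor that acts at the pre-B-cell checkpoint in mice, had 0.45 (0.31 to 0.60) with ETV6-RUNX1 and 0.23 (0.06 to 0.40) with LUC control, EBF1 0.16 (0.03 to 0.28) with ETV6-RUNX1 and 0.37 (0.24 to 0.49) with LUC control, SOX4 0.27 with ETV6-RUNX1 and 0.33 with LUC control, and PAX5 0.17 with ETV6-RUNX1 and 0.18 with LUC control. At equal phases PAX5 had 0.19 with ETV6-RUNX1 and 0.04 with LUC control, and POU2AF1 0.39 with ETV6-RUNX1 and 0.20 with LUC control. Within G1, S and G2/M cells with LUC control PAX5 had -0.16, 0.09 and 0.14, and POU2AF1 -0.25, 0.55 and 0.58. The G1 values rest on 19 RAG cells. FOXO1, which activates Rag transcription in mouse pro-B cells, was low at 26.1 CPM in RAG cells and 22.6 CPM in 0-UMI cells of the ETV6-RUNX1 library (0.20, -0.03 to 0.43) and 21.2 and 17.9 CPM in those of the LUC control library (0.24, -0.03 to 0.51), within counting error in each. RUNX1 (-0.05 with ETV6-RUNX1 and -0.32 with LUC control) was below 0 in both.

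MYB, a transcription factor of blood progenitors, was past 1.5-fold in the ETV6-RUNX1 library. It was at 85.6 CPM in RAG cells and 47.5 CPM in 0-UMI cells there (0.85, 0.71 to 0.98), and at 58.8 and 48.1 CPM in those of the LUC control library (0.29, 0.13 to 0.45). Between the libraries it was 0.54 (0.37 to 0.71) higher in RAG cells with ETV6-RUNX1 on the log2 scale, while the same ratio in 0-UMI cells was -0.02 (-0.14 to 0.11). Within the G1, S and G2/M phases of the ETV6-RUNX1 library its log2 ratios were 0.80, 0.86 and 0.84, and within those of the LUC control library 0.04, 0.62 (0.39 to 0.85) and 0.12, so in S cells it was also past 1.5-fold with LUC control. Depth-matched it had 0.92 with ETV6-RUNX1 and 0.44 with LUC control, and in RAG cells with 3 or more UMIs 1.09 with ETV6-RUNX1 and 0.65 with LUC control. The difference between the libraries was not tested.

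Genes of small pre-B cells and of ETV6-RUNX1 leukemia lay above 0 in most cases at summed UMIs. Over all 3895 measured genes 1360 were above 0 and 1049 below 0 in both libraries. Of 6 measured genes linked to FOXO1 in small pre-B cells, 5 were above 0 and 0 below 0 in both libraries, with medians of 0.24 in the ETV6-RUNX1 library and 0.11 in the LUC control library. Of 6 measured genes of an ETV6-RUNX1 leukemia signature, 5 were above 0 and 0 below 0 in both, with medians of 0.23 with ETV6-RUNX1 and 0.26 with LUC control. With the 3 phases given equal weight the signature medians were 0.36 with ETV6-RUNX1 and 0.06 with LUC control. ARPP21 is on both lists, and DNTT is on the signature list and the V(D)J list. SOCS2, an inhibitor of cytokine signalling, had 0.61 (0.46 to 0.75) with ETV6-RUNX1 and 0.35 (0.18 to 0.52) with LUC control, ARPP21, a cAMP-regulated phosphoprotein, 0.22 (0.13 to 0.31) with ETV6-RUNX1 and 0.41 (0.29 to 0.52) with LUC control, and the kinase SYK 0.31 (0.16 to 0.46) with ETV6-RUNX1 and 0.20 (0.03 to 0.36) with LUC control. At equal phases SOCS2 had 0.58 with ETV6-RUNX1 and 0.07 with LUC control, and the signature gene NRN1 0.44 with ETV6-RUNX1 and 0.05 with LUC control. Within G1, S and G2/M cells with LUC control SOCS2 had -0.33, 0.33 and 0.50, and NRN1 -0.18, 0.16 and 0.27. The G1 values rest on 19 RAG cells. Of 10 measured surface antigens of B-cell precursors, 5 were above 0 and 1 below 0 in both, with medians of -0.01 with ETV6-RUNX1 and 0.05 with LUC control, and CXCR4 was past 1.3-fold. MME, the CALLA antigen, had 0.31 (0.21 to 0.41) with ETV6-RUNX1 and 0.29 (0.19 to 0.39) with LUC control, and CD9, a tetraspanin, 0.31 (0.27 to 0.36) with ETV6-RUNX1 and 0.15 (0.10 to 0.20) with LUC control.

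The pre-B cell receptor genes were lower in RAG cells of the ETV6-RUNX1 library in most cases and near 0 in the LUC control library at summed UMIs. Of 11 measured genes, 3 were above 0 and 5 below 0 in both libraries, beside 1360 and 1049 of all 3895 measured genes. The medians of the 11 were -0.24 in the ETV6-RUNX1 library and -0.02 in the LUC control library. The 3 above 0 in both were SYK, BLNK and CD79B. With ETV6-RUNX1 they had 0.31 (0.16 to 0.46), 0.27 (0.11 to 0.43) and 0.11 (0.06 to 0.16). With LUC control they had 0.20, 0.10 and 0.03. IGLL1, which encodes the lambda5 part of the surrogate light chain, was at 922 CPM in RAG cells and 1225 CPM in 0-UMI cells of the ETV6-RUNX1 library (-0.41, -0.45 to -0.37), and at 1803 and 1855 CPM in those of the LUC control library (-0.04, -0.07 to -0.01). VPREB1, the other part of the surrogate light chain, was at 657 CPM in RAG cells and 773 CPM in 0-UMI cells with ETV6-RUNX1 (-0.24, -0.28 to -0.19) and at 1128 and 1035 CPM in those with LUC control (0.12, 0.09 to 0.16), so it differed in sign between the libraries. CD79A, a signalling chain of the receptor, had -0.36 (-0.47 to -0.26) with ETV6-RUNX1 and -0.04 (-0.13 to 0.06) with LUC control, and the phosphatase PTPN6 had -0.67 (-0.86 to -0.49) with ETV6-RUNX1 and -0.15 (-0.31 to 0.01) with LUC control. PTPRCAP, which associates with CD45, was at 25.9 CPM in RAG cells and 45.3 CPM in 0-UMI cells of the ETV6-RUNX1 library (-0.80, -1.02 to -0.60), and at 110.7 and 109.5 CPM in those of the LUC control library (0.02, -0.10 to 0.13). The difference between the libraries was not tested for these genes. Depth-matched, PTPRCAP had -0.90 with ETV6-RUNX1 and -0.05 with LUC control, and with the 3 phases given equal weight -0.72 with ETV6-RUNX1 and -0.32 with LUC control. Within G1, S and G2/M cells with LUC control PTPRCAP had -1.08 (-1.85 to -0.39), 0.03 and -0.07. The G1 value rests on 19 RAG cells. At equal phases CD79A had -0.21 with ETV6-RUNX1 and -0.34 with LUC control and so was lower in the LUC control library as well. IGLL1 had -0.52 with ETV6-RUNX1 and -0.09 with LUC control at equal phases.

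Mitotic genes were higher in RAG cells, mainly in the LUC control library. Of 43 measured G2/M genes, 40 were above 0 and 0 below 0 in both libraries, beside 1360 and 1049 of all 3895 measured genes. The G2/M medians were 0.16 in the ETV6-RUNX1 library and 0.40 in the LUC control library. Of these 43, 0 with ETV6-RUNX1 and 10 with LUC control were 1.5-fold higher. Over all genes measured in each library the counts were 9 of 3997 with ETV6-RUNX1 and 20 of 4069 with LUC control. The 43 are genes measured in both libraries, a narrower set. CENPA, the centromeric histone variant, was at 39.9 CPM in RAG cells and 34.9 CPM in 0-UMI cells of the ETV6-RUNX1 library (0.19, 0.01 to 0.38), and at 60.1 and 31.2 CPM in those of the LUC control library (0.95, 0.77 to 1.12). HMMR, a spindle protein, had 0.34 (0.18 to 0.49) with ETV6-RUNX1 and 0.88 (0.73 to 1.04) with LUC control. With the 3 phases given equal weight the medians of the list were 0.06 with ETV6-RUNX1 and 0.17 with LUC control. Depth-matched, the medians of the list were 0.05 with ETV6-RUNX1 and 0.26 with LUC control, and over all measured genes those 1.5-fold higher in RAG cells of the LUC control library numbered 8, against 20 at summed UMIs. S-phase genes had medians of 0.07 with ETV6-RUNX1 and -0.10 with LUC control, with 2 of 30 above 0 and 8 below 0 in both. Genes of MYC targets and ribosome biogenesis had medians of -0.13 with ETV6-RUNX1 and -0.02 with LUC control, with 3 of 35 above 0 and 21 below 0 in both, among them the nucleolar proteins NOLC1 (-0.24 with ETV6-RUNX1 and -0.20 with LUC control) and EBNA1BP2 (-0.27 with ETV6-RUNX1 and -0.14 with LUC control).

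Cells called as G2/M, from cells thinned to 8700 UMIs, were 46.5% of RAG cells and 36.6% of 0-UMI cells in the ETV6-RUNX1 library, and 52.5% and 33.9% in the LUC control library. Cells called as S were 44.4% of RAG cells and 53.1% of 0-UMI cells with ETV6-RUNX1, and 40.3% of RAG cells and 59.1% of 0-UMI cells with LUC control. With the 0-UMI cells weighted to the depth of the RAG cells, their G2/M share was 43.5% in the ETV6-RUNX1 library and 42.7% in the LUC control library, closer to the shares of the RAG cells. A phase call is a range of a score: 37.5% of called cells in the ETV6-RUNX1 library and 40.1% in the LUC control library lay within 0.05 of a boundary. The RAG level itself was lowest in cells called as S. RAG1 and RAG2 summed to 41.3 CPM (34.4 to 49.2) in G1, 33.8 CPM (31.4 to 36.4) in S and 37.6 CPM (34.9 to 40.5) in G2/M kept cells of the ETV6-RUNX1 library, and to 37.4 CPM (29.5 to 46.9), 24.2 CPM (22.2 to 26.4) and 29.6 CPM (27.2 to 32.2) in the LUC control library. The interval of S cells overlapped with the others in the ETV6-RUNX1 library and with neither in the LUC control library, and those of G1 and G2/M cells overlapped in both.

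**Figure D4:**
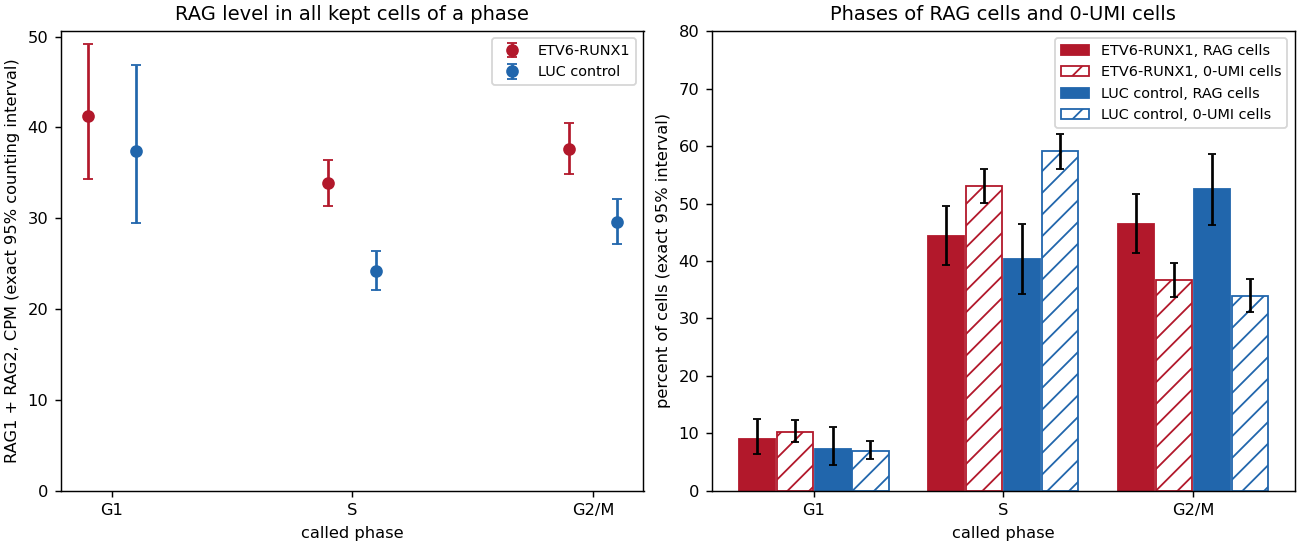
Left, the summed RAG1 and RAG2 level (CPM) of kept cells by called phase in the ETV6-RUNX1 and the LUC control library, and right, the percentage of RAG cells and 0-UMI cells called as each phase, with bars for exact 95% counting intervals. G2/M makes up 46.5% of RAG cells and 36.6% of 0-UMI cells with ETV6-RUNX1, and S cells have the lowest RAG level in each library, 33.8 CPM with ETV6-RUNX1 and 24.2 CPM with LUC control.

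Cells with RAG1 alone and cells with RAG2 alone were few. There were 152 RAG1-only and 44 RAG2-only cells in the ETV6-RUNX1 library and 93 RAG1-only and 41 RAG2-only cells in the LUC control library. MYB had log2 ratios to 0-UMI cells of 0.77 (0.57 to 0.97) in RAG1-only and 0.64 (0.28 to 0.99) in RAG2-only cells of the ETV6-RUNX1 library, and 0.45 (0.20 to 0.69) in RAG1-only and 0.04 (-0.37 to 0.42) in RAG2-only cells of the LUC control library, with intervals that overlap. For CXCR4 the intervals did not overlap in the ETV6-RUNX1 library, at 0.32 (0.17 to 0.46) in RAG1-only and 1.13 (0.93 to 1.32) in RAG2-only cells. They did overlap in the LUC control library, at 0.35 (0.20 to 0.49) in RAG1-only and 0.53 (0.34 to 0.72) in RAG2-only cells. IGLL1 was also lower in RAG2-only cells of the ETV6-RUNX1 library, at -0.74 (-0.85 to -0.63), than in RAG1-only cells, at -0.27 (-0.32 to -0.22). DNTT was higher in RAG1-only cells of the LUC control library, at 0.52 (0.42 to 0.61), than in RAG2-only cells, at 0.21 (0.07 to 0.36). CXCR4, IGLL1 and DNTT are given here after their values were seen, and the genes whose intervals do not overlap were not counted. The intervals leave out the spread between these few cells.

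RAG cells of the libraries were also compared directly. Of 4108 measured genes, 18 (0.438%) were 1.5-fold or more higher and 52 (1.27%) lower in RAG cells of the ETV6-RUNX1 library than in those of the LUC control library. In 0-UMI cells 7 of 4005 (0.175%) were higher and 21 (0.524%) lower. At 1.3-fold, 78 (1.9%) were higher and 194 (4.72%) lower in RAG cells, and 29 (0.724%) higher and 76 (1.9%) lower in 0-UMI cells. The RAG cells hold fewer UMIs in all, 8940971 with ETV6-RUNX1 and 7307950 with LUC control, against 21375440 and 23242673 in 0-UMI cells of the same libraries, so counting error is larger in RAG cells. RAG cells with LUC control also had more UMIs per cell than those with ETV6-RUNX1, and the part of this in the ratios was not tested. The lowest ratios were those of PTPRCAP, with a log2 ratio of -2.09 (-2.31 to -1.88) in RAG cells and -1.27 (-1.38 to -1.17) in 0-UMI cells, and LAT2, a B-cell adaptor, with -2.06 (-2.39 to -1.73) in RAG cells and -1.59 (-1.76 to -1.43) in 0-UMI cells. RASGRP2, an exchange factor for Rap GTPases, had -1.61 (-1.83 to -1.40) in RAG cells and -1.36 (-1.49 to -1.24) in 0-UMI cells, and IGLL1 -0.97 (-1.01 to -0.93) in RAG cells and -0.60 (-0.62 to -0.58) in 0-UMI cells. F2RL3, FAM129C, KB-208E9.1 and N4BP3 were the other 4 of the 8 lowest, between -1.23 and -0.96 in RAG cells and between -1.19 and -0.77 in 0-UMI cells; KB-208E9.1 neighbours IGLL1 and reads shared between them are uncertain. VPREB1 had -0.78 in RAG cells and -0.42 in 0-UMI cells. The lowest genes were chosen by their ratio in RAG cells, so their gap to the 0-UMI cells is a description.

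Among the higher genes, BCAS4 had a log2 ratio of 1.15 (0.82 to 1.49) in RAG cells and 0.91 (0.72 to 1.10) in 0-UMI cells, and KANK2, a regulator of the actin cytoskeleton, 1.07 (0.73 to 1.42) in RAG cells and 0.66 (0.45 to 0.88) in 0-UMI cells. EMP2, a membrane protein, was at 20.1 CPM in RAG cells of the ETV6-RUNX1 library and 9.44 CPM in those of the LUC control library (1.09, 0.68 to 1.51), with 0.41 (0.16 to 0.66) in 0-UMI cells. AKAP12, a scaffold for protein kinase A, was at 60.7 CPM with ETV6-RUNX1 and 33.7 CPM with LUC control in RAG cells (0.85, 0.63 to 1.07), with 0.39 (0.26 to 0.53) in 0-UMI cells. The G-protein gamma subunit GNG11 had 0.87 (0.67 to 1.06) in RAG cells and 0.68 (0.56 to 0.79) in 0-UMI cells. GCSAM, a germinal centre signalling protein, was at 25.1 CPM with ETV6-RUNX1 and 14.8 CPM with LUC control in RAG cells (0.76, 0.42 to 1.11), with 0.12 (-0.11 to 0.35) in 0-UMI cells. HIST1H1D, a linker histone, had 0.79 (0.62 to 0.97) in RAG cells and 0.07 (-0.03 to 0.17) in 0-UMI cells, and SNORA76, a small nucleolar RNA entry whose UMIs may come from a host transcript, 0.72 in RAG cells and 0.25 in 0-UMI cells. These genes were chosen by their ratio in RAG cells as well, and EMP2 and GCSAM reached 20 CPM in RAG cells of the ETV6-RUNX1 library alone, so their gap to the 0-UMI cells is a description.

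**Figure D5:**
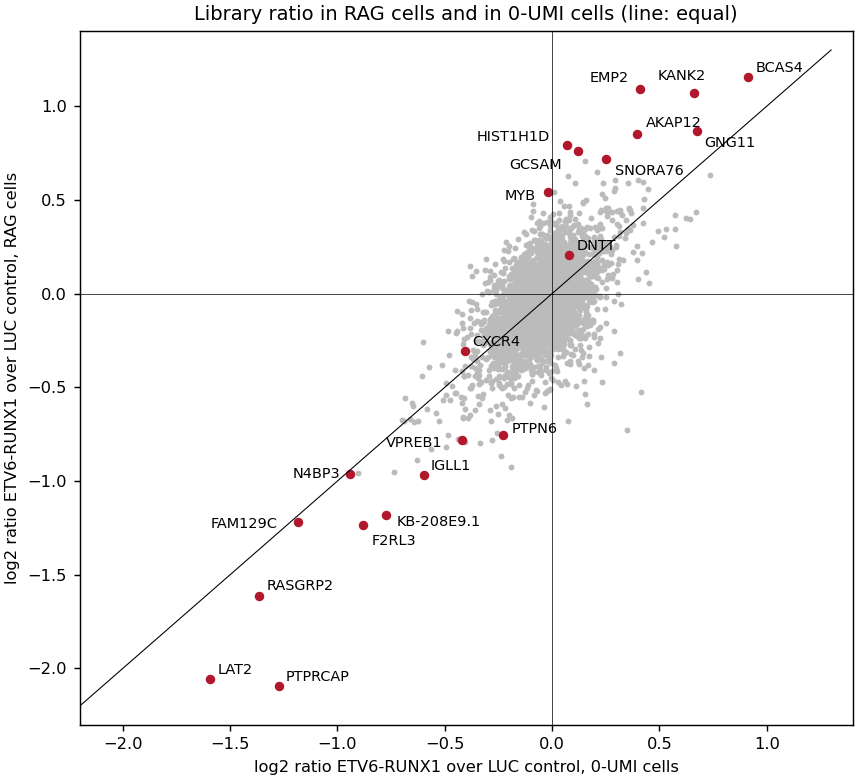
Log2 ratio of ETV6-RUNX1 over LUC control in 0-UMI cells (horizontal axis) against that in RAG cells (vertical axis), 1 point per measured gene. PTPRCAP, LAT2 and IGLL1 lie below the diagonal, at -2.09, -2.06 and -0.97 in RAG cells, and GCSAM, HIST1H1D and MYB above it, at 0.76, 0.79 and 0.54.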

How the data were processed

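Droplet RNA libraries of Nalm-6 cells were used, 1 per construct. The authors deposited raw UMI counts per gene and barcode, with no normalization, over 32738 genes; Cell Ranger 3.0.2 and hg19 are named in the submitters' processing notes. The sources used here do not state the strand setting. The libraries hold 44311919 (ETV6-RUNX1) and 43315742 (LUC control) UMIs.

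Groups came from the construct label. UMIs were summed over cells and scaled to CPM. A ratio has an exact interval for a pair of Poisson counts and a share a Clopper-Pearson interval, both at 95%; 20 CPM is 179 and 146 UMIs in RAG cells of the ETV6-RUNX1 and LUC control libraries. With 1 library per construct genes were counted by size, with no test. The members, gene lists and sizes were chosen with earlier results of these data known. Named genes are the 12 highest and 12 lowest in both libraries among ratios of 1 sign with intervals that exclude no difference, the 8 highest and 8 lowest between libraries, and the list members furthest from 0; others were chosen after their values were seen. A gene that the rule would name may not be reported here. Python 3.11.15, scanpy 1.11.5 (phase scores, Scrublet), scipy 1.17.1 and numpy 2.4.6 were used, and the counting was tested on simulated data. Promoter sequence is RefSeq's, on GRCh38.p14. Alternatives were matching for depth or phase, thinning, other scalings, thresholds and filters.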

Additional observations from a re-analysis of the deposited data

Results flagged for a closer look

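HIST1H1D had a log2 ratio of RAG cells over 0-UMI cells of 0.29 (0.17 to 0.41) in the ETV6-RUNX1 library and -0.44 (-0.60 to -0.28) in the LUC control library. It was 0.43 depth-matched and 0.27 with the 3 phases given equal weight in the ETV6-RUNX1 library, and -0.19 depth-matched and -0.02 with equal phases in the LUC control library. Within G1, S and G2/M cells with LUC control it had 2.37 (1.00 to 3.80), -0.36 (-0.59 to -0.14) and -0.33 (-0.58 to -0.09). Within those with ETV6-RUNX1 it had -1.63 (-4.78 to 0.45), 0.42 and 0.21. The equal-phase value with LUC control thus leans on G1, which held 19 RAG cells there. VPREB1 had -0.24 in the ETV6-RUNX1 library and 0.12 in the LUC control library. Neither difference between the libraries was tested.

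Barcodes that the filters left out also held RAG transcripts, at 54.0 CPM (33.0 to 83.4, from 20 UMIs) in 236 barcodes of the ETV6-RUNX1 library and 18.1 CPM (8.66 to 33.2, from 10 UMIs) in 333 barcodes of the LUC control library. Kept cells had 36.6 CPM with ETV6-RUNX1 and 27.5 CPM with LUC control.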

How the results depend on the processing

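The 12 highest and 12 lowest genes kept their sign in both libraries under each of 11 alternative settings, save EGFL7 with the 3 phases given equal weight. Some other named genes changed sign in the library where their ratio was near 0. Depth-matched, CENPA went from 0.19 to -0.06 with ETV6-RUNX1 and PTPRCAP from 0.02 to -0.05 with LUC control. Counts at 1.5-fold below run in this order: higher and lower in RAG cells of the ETV6-RUNX1 library (9 and 3 as reported), higher and lower in those of the LUC control library (20 and 0), higher and lower in both (0 and 0), and higher and lower in ETV6-RUNX1 than in LUC control RAG cells (18 and 52); only counts that moved by over 1.5 times are given. Depth-matched, 5 were lower in the ETV6-RUNX1 library, 8 higher in the LUC control library and 2 higher in both. Thinned to 8700 UMIs, they were 20, 10, 38 and 16, 1 lower in both, and 59 and 115; the share of RAG cells was 5.73% with ETV6-RUNX1 and 2.58% with LUC control. With cells weighted equally, 1 was lower in the LUC control library and 1 higher in both. With 3 or more UMIs they were 47, 18, 45 and 14, 14 higher in both, and 45 and 119. With a mitochondrial limit of 5%, 33 and 87 differed between libraries. Without the 5% of cells with most UMIs, 15 were higher in the ETV6-RUNX1 library and 1 in both. With equal phases they were 24, 9, 33 and 12, 2 higher in both, and 48 higher between libraries. A floor of 10 CPM gave 18, 18, 34 and 4, 1 higher in both, and 54 and 125. A floor of 50 CPM gave 4 and 1, 11 higher in the LUC control library, and 10 and 19. At 1.3-fold they were 55, 17, 75 and 11, 11 and 1 in both, and 78 and 194. At 2-fold they were 0 and 0, 1 higher in the LUC control library, and 3 and 6. The share with 1 or more RAG UMIs was 44.8% with ETV6-RUNX1 and 41.0% with LUC control, and with 3 or more 5.34% with ETV6-RUNX1 and 5.03% with LUC control. Thinning, 3 or more UMIs and the lower floor leave fewer UMIs behind a ratio, so counting error is larger there. Equal phases lean on G1, which held 35 RAG cells with ETV6-RUNX1 and 19 with LUC control, so counting error is larger there too. Scaling by median of ratios, totals without ribosomal protein and mitochondrial genes, leaving out Scrublet's cells and using all kept cells with 0 RAG UMIs moved no count by over 1.5 times. The counts between libraries use RAG cells alone. Depth matching and the choice of 0-UMI cells therefore cannot alter them and say nothing about them.

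No paired analysis was possible because each construct has 1 library. Precision is limited by UMIs: a gene at the floor rests on 179 or 146 UMIs in RAG cells. The intervals leave out the spread between cells, cultures and library preparations, and construct, culture and library cannot be told apart.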

Other observations

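At summed UMIs some genes of S phase and growth were opposite in sign between the libraries: 30 measured genes had log2 ratios of RAG cells over 0-UMI cells of opposite sign in the libraries with both intervals excluding no difference, against 346 with the same sign. MYC, the growth transcription factor, was at 91.7 CPM in RAG cells and 106 CPM in 0-UMI cells of the ETV6-RUNX1 library (-0.21, -0.33 to -0.09), and at 154 and 127 CPM in those of the LUC control library (0.28, 0.17 to 0.37). E2F1, which drives entry into S phase, had 0.30 (0.16 to 0.43) with ETV6-RUNX1 and -0.19 (-0.36 to -0.02) with LUC control, and PCNA, the replication clamp, 0.13 (0.04 to 0.22) with ETV6-RUNX1 and -0.17 (-0.26 to -0.08) with LUC control. The linker histones HIST1H1B (0.21 with ETV6-RUNX1 and -0.35 with LUC control) and HIST1H1C (0.27 with ETV6-RUNX1 and -0.29 with LUC control) had the signs of HIST1H1D. Depth-matched, E2F1 had 0.36 with ETV6-RUNX1 and -0.01 with LUC control, and PCNA 0.19 with ETV6-RUNX1 and -0.05 with LUC control. These genes were chosen after their values were seen, and the phase shares given above differ between RAG cells and 0-UMI cells in both libraries.

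Of the p53 targets, CDKN1A, which encodes the cyclin-dependent kinase inhibitor p21, had -0.45 (-0.62 to -0.27) in the ETV6-RUNX1 library and -0.11 (-0.29 to 0.07) in the LUC control library, and MDM2, the p53 ubiquitin ligase, 0.39 (0.21 to 0.57) with ETV6-RUNX1 and 0.11 (-0.10 to 0.32) with LUC control. Over 8 measured members of the list for DNA damage and p53, 5 were above 0 and 2 below 0 in both libraries, beside 1360 and 1049 of all 3895 measured genes. The medians of the 8 were 0.02 with ETV6-RUNX1 and 0.10 with LUC control. Polyamine enzyme gene ODC1 was at 339 CPM in RAG cells and 378 CPM in 0-UMI cells of the ETV6-RUNX1 library and at 354 and 414 CPM in those of the LUC control library.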
